A study of Mus musculus with 12 samples.

Results

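The genes described here encode the nuclear subunits of oxidative phosphorylation, the mitochondrial machinery that passes electrons to oxygen and makes ATP. They were chosen as every entry of the deposited table whose symbol begins with Ndufa, Ndufb, Ndufc, Ndufs or Ndufv and a digit, with Uqcr, Cox4 to Cox8 or Atp5, or is Sdha, Sdhb, Sdhc or Sdhd. This gave 84 of the 23306 genes in the table. By symbol, 35 belong to complex I, 4 to complex II, 8 to complex III, 19 to complex IV and 15 to complex V. The remaining 3 are not subunits: Cox7a2l, a factor of respiratory supercomplex assembly, and Atp5s and Atp5sl, which carry related names. Ndufa4 and its relative Ndufa4l2 were placed with complex IV, where the Ndufa4 protein is now known to sit, in spite of their symbols.

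RNA was measured in 4 stromal populations sorted from the thymus of C57 BL6 KitL-tomato reporter mice, with 3 libraries each, so every group came from the same reporter strain. Both vascular endothelial (VEC) groups were Lin-, Dapi-, EpCAM- and CD31+ and differed in the reporter, td-tomato+ or td-tomato-. The epithelial (TEC) groups were EpCAM+ and CD31-: cortical cells (cTEC) were UEA1-, Ly51+ and td-tomato+, and medullary cells (mTEC) were UEA1+, Ly51- and td-tomato-. The reporter state and the cortical or medullary gate therefore change together in epithelium and cannot be told apart. The labels give no animal for a library and no age, so p-values rest on the spread among the libraries alone, which may be technical.

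Complexes I and II feed electrons from NADH and succinate into the chain, complex III passes them to cytochrome c, and complex IV hands them to oxygen. Complexes I, III and IV pump protons, and complex V, the ATP synthase, uses the resulting gradient to make ATP. Most subunits are needed in every respiring cell, but complex IV also has isoforms that replace a widely expressed subunit in heart and skeletal muscle, in lung and smooth muscle, or in testis. The subunits encoded by mitochondrial DNA were not analysed here.

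Total counts per library were 8388869 to 11807130. The groups carried the markers of their gates: the summed level of 8 endothelial markers was 8529 to 11410 CPM (a gene's share of a library's counts on a fixed scale, after edgeR's trimmed-mean or TMM normalisation) in VEC and at most 366 in TEC. That of 7 epithelial markers was 3502 to 4543 CPM in TEC. Markers of other cells also moved between groups. The sum of 12 mural cell markers was 70.6 to 251 CPM in tomato+ VEC, 189 to 513 in tomato- VEC, 484 to 1604 in cTEC and 862 to 1262 in mTEC, with Kcnj8 at 0 in both TEC groups. Tagln was the highest of them, at a mean of 134 of 169 CPM in tomato+ VEC and 350 of 390 in tomato- VEC. In cTEC it was at 698 of 986 CPM and in mTEC at 391 of 1121. The 6 fibroblast markers summed to at most 50.9 CPM in VEC, 1600 to 2191 in cTEC and 129 to 404 in mTEC. Most of the TEC sums came from Dcn alone, at a mean of 1860 of 1948 CPM in cTEC and 240 of 262 in mTEC. The 8 thymocyte markers summed to 2.33 to 33.0 CPM in VEC, 38.2 to 85.3 in cTEC and 16.6 to 37.0 in mTEC. The 7 myeloid markers in the table, such as Lyz2, summed to 6.04 to 67.3 CPM in VEC, 11.1 to 168 in cTEC and 369 to 407 in mTEC, and the 6 erythroid markers to at most 22.9 in VEC, at most 2.16 in cTEC and 23.0 to 62.3 in mTEC. Their part in the differences below was not tested, and in bulk RNA fewer cells of a type cannot be told apart from less RNA per cell.

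The promoters of 4 genes on which the results turn are shown first: the complex I gene with the widest range, the complex I gene that marked mTEC, the catalytic subunit of ATP synthase and a testis-type isoform of complex IV. Each is the 250 bases before the gene's start in RefSeq (GRCm38.p6, not the mm9 build of the counts), 5′ to 3′ on the gene's strand. They lie at chr17:56717512-56717761 (plus strand), chr7:97399753-97400002 (plus), chr10:128083057-128083306 (plus) and chr7:4753095-4753344 (minus). Capitals mark the letters of a searched motif.
Ndufa11: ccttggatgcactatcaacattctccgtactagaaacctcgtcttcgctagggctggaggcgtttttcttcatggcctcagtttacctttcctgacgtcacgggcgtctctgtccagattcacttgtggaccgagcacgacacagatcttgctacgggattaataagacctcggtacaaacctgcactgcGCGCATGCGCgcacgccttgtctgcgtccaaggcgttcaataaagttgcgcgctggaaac
Ndufc2: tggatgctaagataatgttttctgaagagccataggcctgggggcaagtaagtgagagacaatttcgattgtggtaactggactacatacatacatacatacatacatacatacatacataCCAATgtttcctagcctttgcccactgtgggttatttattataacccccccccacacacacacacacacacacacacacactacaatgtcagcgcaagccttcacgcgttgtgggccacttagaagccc
Atp5b: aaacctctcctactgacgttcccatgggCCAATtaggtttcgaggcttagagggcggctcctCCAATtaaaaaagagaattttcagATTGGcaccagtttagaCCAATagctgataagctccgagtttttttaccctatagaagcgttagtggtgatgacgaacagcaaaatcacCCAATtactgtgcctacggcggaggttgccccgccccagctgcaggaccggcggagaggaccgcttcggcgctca
Cox6b2: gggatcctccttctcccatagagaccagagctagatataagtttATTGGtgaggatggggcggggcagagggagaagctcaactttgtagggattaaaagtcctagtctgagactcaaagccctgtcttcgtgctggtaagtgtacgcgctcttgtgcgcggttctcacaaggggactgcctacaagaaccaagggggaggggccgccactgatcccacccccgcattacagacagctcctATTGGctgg

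Of the 84 genes, 69 had a promoter in the RefSeq table, and 5 motifs were searched in them on both strands. The letters of NRF1, a regulator of respiratory genes, the half-site GCGCA joined to its own reverse complement, were in 4 of 69 promoters (5.8%), those of Atp5g2, Atp5k, Cox6a1 and Ndufa11, against 0.8% of all 27025 promoters. The ETS letters CCGGAAG, read by the respiratory regulator GABP, were in 15.9% against 7.1%, and the NFY letters CCAAT were in 44.9% against 34.5%. ACGTG, the core of the hypoxia response element, was in 23.2% against 16.6%. The YY1 letters AAGATGGC were in 0 of 69 against 1.6%. Only the 250 bases before each start were searched, so a motif lying past the start would not be seen. Atp5b held 5 copies of CCAAT in either orientation, Cox6b2 2 and Ndufc2 1. No pair of these motifs shares letters in the 4 stretches shown. These matches describe the sequence and were not related to binding.

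Subunit messages were abundant in all 4 populations and took a larger share of the epithelial libraries. The 84 genes together held 1.18% ± 0.119 (SD, n = 3) of counts in tomato+ VEC, 1.21% ± 0.00577 in tomato- VEC, 1.62% ± 0.0814 in cTEC and 1.67% ± 0.129 in mTEC. The lowest TEC library, at 1.53%, lay above the highest VEC library, at 1.32%. After TMM normalisation the gap was narrower, with summed levels of 13080 ± 1219, 12756 ± 495, 14613 ± 827 and 15874 ± 920 CPM (SD, n = 3 each), and the highest tomato+ VEC library (14464) lay above the lowest cTEC library (13661).

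On the deposited RPKM scale, which divides counts by gene length and by the library total, the median complex I gene stood at 137 in tomato+ VEC, 143 in tomato- VEC, 245 in cTEC and 233 in mTEC. Complex V medians were 186, 187, 252 and 294 RPKM in the same order. Complex III, with 294, 230, 330 and 343, was the complex with the highest median in every group. Complex IV without its tissue-type isoforms stood at 243, 193, 284 and 289 RPKM and complex II at 141, 129, 173 and 181. Each of these medians exceeded the RPKM of 96.8% to 99.0% of the genes in the table. The medians are not TMM-scaled and can fall on different genes in different groups. Gene by gene, the median complex I difference (VEC minus TEC, edgeR with TMM) was -0.16 on the log2 scale. Over all genes tested it was -0.18.

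**Figure D1:**
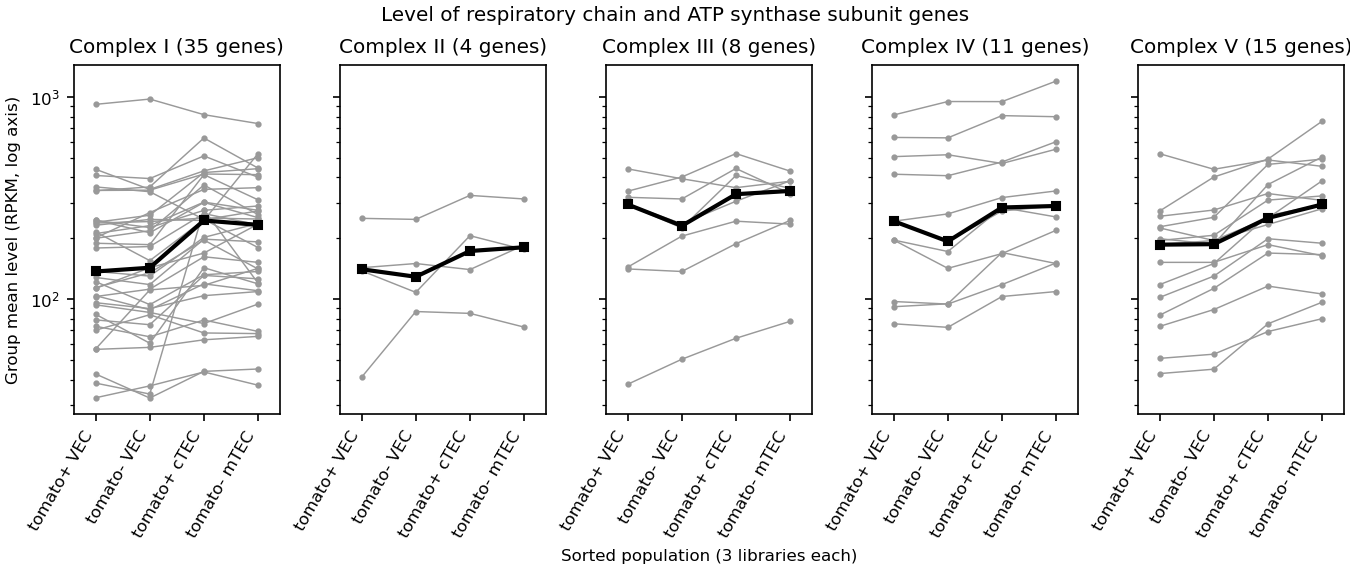
Mean RPKM (log axis, 3 libraries per group) of each subunit gene as a grey line across the 4 populations, in a panel per complex, with the median of the panel in black; tissue-type isoforms are left out. The complex I median, without TMM scaling, is 137 and 143 in VEC and 245 and 233 in TEC. Within complex I the means over all libraries run from 37.7 to 864.

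Within a complex the genes were spread over a wide range, with the same gene often at the top or bottom in all groups. Over the 12 libraries, Ndufa3, a small membrane subunit, was the highest complex I gene at a mean of 864 RPKM, and Ndufs3, a core subunit of the peripheral arm, the lowest at 37.7. Cox4i1, the nuclear subunit through which ATP acts on complex IV, led its complex at 978 RPKM, against 90.0 for Cox5b. In complex III, Uqcrh, the hinge protein, stood at 425 RPKM and Uqcrfs1, the Rieske iron-sulfur protein, at 57.5. In complex II, Sdhb, the iron-sulfur subunit, stood at 284 and Sdha, the flavoprotein that oxidises succinate, at 71.4. In complex V, Atp5e, the epsilon subunit, stood at 481 and Atp5g2 at 63.3.

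Levels of 9 members are less certain because the GENCODE reference holds a near-identical copy elsewhere (Atp5c1, Atp5g2, Atp5h, Atp5k, Atp5l, Cox7c, Ndufb11, Ndufs3 and Uqcrb), which could split or take their reads. Their median was 132 RPKM, against 226 for the 67 other members that are no tissue-type isoform. A further limit is that 25 members have an exon overlapping a gene on the other strand, and whether counting used strand is not given in the sources used here.

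Replicates were closer for these genes than for the table as a whole. Leaving out the 8 tissue-type isoforms, the median SD of log2(CPM + 1) between replicates was 0.272 in tomato+ VEC, 0.188 in tomato- VEC, 0.157 in cTEC and 0.135 in mTEC. Over all 14792 genes tested it was 0.608, 0.521, 0.423 and 0.439. These genes also stand among the most abundant of the table. The widest spreads belonged to Ndufa10 in tomato+ VEC, at 76.6, 9.79 and 141 CPM, and to Atp5s in tomato- VEC, at 47.0, 0 and 8.83 CPM.

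For most of the same 76 members the group means lay close together. The ratio of the highest to the lowest group mean was under 1.5 for 45 of them, 1.5 to 2 for 20 and 2 or more for 11, with a median of 1.44. The group with the highest mean was mTEC for 34 genes, cTEC for 22, tomato+ VEC for 16 and tomato- VEC for 4. Ndufa11 had the widest range, at 6.96, followed by Atp5b at 2.41, Atp5e at 2.39, Ndufa8 at 2.32 and Ndufc2 at 2.26.

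The first comparison asked where endothelium and epithelium differ, with both VEC groups set against both TEC groups. A gene was called when its adjusted p (edgeR's quasi-likelihood test, Benjamini-Hochberg over all 14792 genes tested) was under 0.05. A low-count filter left 81 of the 84 members, and Ndufa4l2, Cox7b2 and Cox8c fell under it. Of the 81, 4 were higher in VEC and 16 lower, so 24.7% were called, against 36.3% of all genes tested (14.4% higher and 21.8% lower). At an unadjusted p under 0.05, 29 passed, against 43.8% of all genes. The estimate lay below 0 for 63 of the 81, and for 8299 of all 14792 genes tested. For the 76 members that are no tissue-type isoform the median difference was -0.18 on the log2 scale, and over all genes tested it was also -0.18. Scaling shifts this split: the calls were 1 higher and 27 lower with DESeq2's relative log expression factors, where the median of all genes was -0.31, and 1 and 31 with total counts, where it was -0.41. Without cTEC replicate 2 the count fell from 20 to 12, and without tomato- VEC replicate 2 to 13.

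**Figure D2:**
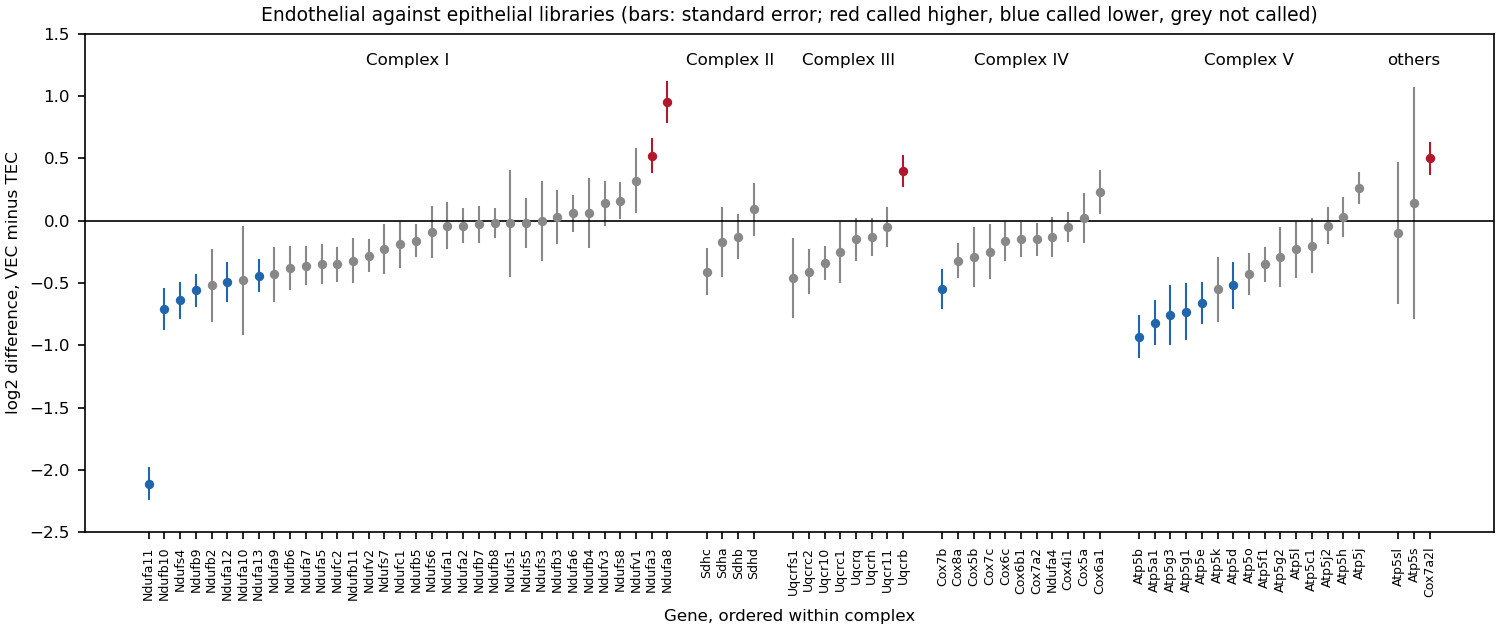
Log2 difference (VEC minus TEC, 6 libraries each) with its standard error for members that are no tissue-type isoform and are reported here, ordered within each complex; red genes were called higher in VEC, blue lower, grey not called. Ndufa11 stands apart at -2.11, Ndufa8 is highest at 0.95, and 6 of the 15 complex V genes are blue.

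In complex I, 2 of 35 genes were higher in VEC and 6 lower, 22.9% called against 36.3% of all genes tested. All 8 calls fell on accessory subunits, which surround the catalytic core and make up 28 of the 35. Ndufv2, a core subunit, had an unadjusted p under 0.05 but was not called by edgeR with TMM (log2 -0.28, edgeR adjusted p = 0.110). With relative log expression scaling edgeR called it (log2 -0.41, edgeR adjusted p = 0.0243), as did DESeq2. Whether core and accessory genes differ was not tested.

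Ndufa11, an accessory membrane subunit, had the largest difference among the members outside the tissue-type isoforms. In tomato+ VEC it was at 105, 117 and 117 CPM, and the tomato- VEC libraries held 94.1, 94.7 and 97.0. It stood at 643, 689 and 659 CPM in cTEC and at 280, 280 and 352 in mTEC. The 4 groups did not overlap, in the order cTEC, mTEC, tomato+ VEC and tomato- VEC, although the VEC groups did not differ past the threshold (edgeR adjusted p = 0.546). The difference between VEC and TEC was -2.11 (SE 0.13) on the log2 scale, a level 4.33-fold lower in VEC (edgeR adjusted p = 2.26e-07), and it was called under all 21 alternative settings.

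Which gene model lies behind the Ndufa11 counts is not known here. The length that the deposited RPKM implies was 2661 bases, 2.90 times the longest GENCODE coding transcript of 918 bases, and the next highest ratio among the members was 1.46 (Atp5o). An exon of the gene overlaps Vmac on the opposite strand. Vmac, looked up after the Ndufa11 values were seen, was at 2.80, 0.783 and 12.5 CPM in tomato+ VEC, at 47.1, 15.9 and 8.61 in tomato- VEC, 51.7, 37.3 and 41.1 in cTEC and 6.93, 0.232 and 7.36 in mTEC. Its highest library lay below the lowest Ndufa11 library, and it was not called between VEC and TEC (edgeR adjusted p = 0.777) or between cTEC and mTEC (0.146). Which stretch of the locus the reads came from was not tested.

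Ndufa8, an accessory subunit of the intermembrane space side, went the other way. In VEC it was at 340, 255 and 285 CPM (tomato+) and at 346, 223 and 231 (tomato-), against 138, 178 and 179 in cTEC and 144, 118 and 117 in mTEC. Every VEC library lay above every TEC library. It was 1.94-fold higher in VEC (log2 0.95, SE 0.17, edgeR adjusted p = 0.000847), again under all 21 alternatives. Ndufa3 was also called higher (log2 0.52, edgeR adjusted p = 0.0144), but not with relative log expression or total-count scaling.

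Ndufs4, an accessory subunit known from Leigh syndrome and used as a knockout model of complex I deficiency, was lower in VEC. Its levels were 169, 140 and 119 CPM in tomato+ VEC, at 105, 92.4 and 97.3 in tomato- VEC, 188, 195 and 209 in cTEC and 160, 175 and 183 in mTEC. Only the first tomato+ VEC library reached the TEC range (log2 -0.64, SE 0.15, edgeR adjusted p = 0.00463). Ndufb9 (-0.56) and Ndufb10 (-0.71), accessory subunits of the membrane arm, were lower as well, and these 3 calls held under all 21 alternatives. Ndufa12 (-0.49) and Ndufa13 (-0.44) were called too, but lost the call in 13 and 10 of the 21.

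In complex II 0.0% and in complex III 12.5% of genes were called, against 36.3% of all genes tested. With 4 and 8 genes these shares say little. Of the 4 complex II genes edgeR called 0 with TMM, and 1 (Sdhc) had an unadjusted p under 0.05. DESeq2 called Sdhc, as did edgeR with relative log expression scaling (edgeR adjusted p = 0.0416). In complex III, 1 of 8 was called: Uqcrb, a small subunit at the quinone-binding side, at 209 to 245 CPM on average in VEC and 161 to 183 in TEC (log2 0.40, edgeR adjusted p = 0.0305). It is one of the genes with a near-identical copy, and its call was lost in 11 of 21 alternatives. DESeq2 did not call it (adjusted p = 0.0646) but called Uqcr10 and Uqcrc2 lower (4.89e-05 and 0.0295). With relative log expression scaling edgeR also called Uqcr10 and Uqcrc2 lower (edgeR adjusted p = 0.0164 and 0.0373).

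In complex V, 6 of 15 genes were called, all lower in VEC, with a median log2 difference of -0.43 over its 15 genes. The called share, 40.0%, was near the 36.3% of all genes tested, of which 21.8% were lower. Whether it differs from the other complexes was not tested. Atp5b encodes the beta subunit that carries the catalytic site. It was at 347, 339 and 550 CPM in tomato+ VEC, at 455, 276 and 388 in tomato- VEC, 599, 599 and 678 in cTEC and 1019, 825 and 851 in mTEC. All VEC libraries lay below all TEC libraries, and the level was 1.91-fold lower in VEC (log2 -0.93, SE 0.17, edgeR adjusted p = 0.00116).

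Atp5a1, the alpha subunit that pairs with beta in the catalytic head, was at 411, 271 and 272 CPM in tomato+ VEC, at 551, 286 and 329 in tomato- VEC, 540, 571 and 594 in cTEC and 692, 673 and 665 in mTEC. Only tomato- VEC replicate 1 overlapped the TEC libraries (log2 -0.82, SE 0.18, edgeR adjusted p = 0.00399). Atp5e, a subunit of the central stalk, was at 99.2, 103 and 172 CPM in tomato+ VEC, at 194, 168 and 166 in tomato- VEC, 164, 204 and 183 in cTEC and 331, 289 and 273 in mTEC. Its VEC and cTEC libraries overlapped and mTEC lay above them all (VEC minus TEC, log2 -0.66, SE 0.17, edgeR adjusted p = 0.0100). The calls of Atp5a1, Atp5b and Atp5e held under all 21 alternatives.

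The other complex V calls were lost under some settings. Atp5d, the delta subunit of the central stalk, lost its call in 13 of 21 alternatives, Atp5g3 in 9 and Atp5g1 in 8. Atp5g1, Atp5g2 and Atp5g3 encode the same ring-forming c subunit with different import sequences, so their shares can be compared per length. Atp5g3 supplied 68.0% ± 9.28 (SD, n = 3) of their summed RPKM in tomato+ VEC, 72.1% ± 2.83 in tomato- VEC, 76.2% ± 2.01 in cTEC and 73.6% ± 1.75 in mTEC. It was the main c subunit gene in every library, and the tomato+ VEC range, 62.5% to 78.8%, covered those of all other groups.

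**Figure D3:**
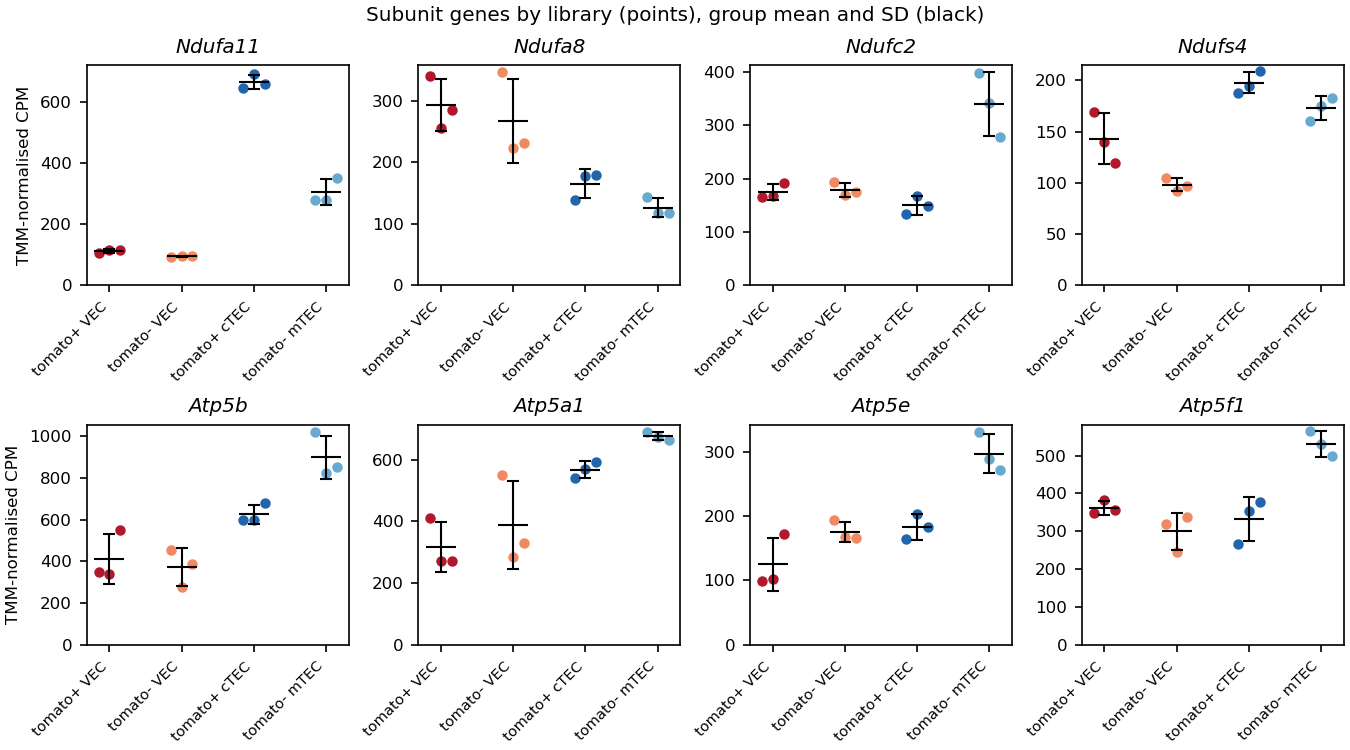
TMM-normalised CPM of 8 subunit genes in each of the 12 libraries (points), with the group mean and SD in black (n = 3). Ndufa11 is at 94.1 to 117 in VEC and 280 to 689 in TEC, Ndufa8 is higher in VEC, Ndufc2 and Atp5f1 are highest in mTEC, and Ndufs4, Atp5b and Atp5a1 are mostly higher in TEC.

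In complex IV, edgeR gave no usable estimate for Cox6a2, 1 of the 16 tested genes. Of the 16, 0 were called higher in VEC and 4 lower. The called share was below the 36.3% of all genes tested (14.4% higher and 21.8% lower). Among the 4 called genes, 3 were tissue-type isoforms. Of their widely expressed counterparts, Cox4i1, Cox6a1, Cox6b1, Cox7a2, Cox8a and Ndufa4 were not called by edgeR with TMM. Their log2 differences were -0.32 (Cox8a) to 0.23 (Cox6a1). Cox8a was called by DESeq2 and by edgeR with relative log expression scaling (edgeR adjusted p = 0.0252). Cox7b, a small subunit with a mean of 100 to 101 CPM in VEC and 142 to 153 in TEC, was lower in VEC (log2 -0.55, edgeR adjusted p = 0.0171) but lost the call in 6 of 21 alternatives. Outside the subunits, Cox7a2l was higher in VEC, at 197 to 266 CPM against 155 to 178 (log2 0.50, edgeR adjusted p = 0.0119). It lost the call in 4 alternatives, among them relative log expression and total-count scaling.

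The tissue-type isoforms of complex IV were rare in all 4 populations. The 8 genes summed to at most 28.0 CPM in any library, while the 7 widely expressed counterparts summed to 1715 to 2390. The highest share that any of the 8 had of the RPKM summed with its counterpart was 6.49%, for Cox8b in mTEC replicate 1. The ratios given next are of summed counts per TMM-scaled library size, with exact 95% intervals that cover counting error only.

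Cox6b2, the testis-type form of Cox6b1, was the most abundant. No count was seen in the 3 tomato+ VEC libraries, and the gene stood at 1.11, 0.636 and 5.59 CPM in tomato- VEC, 5.58, 9.78 and 14.3 in cTEC and 8.47, 4.29 and 1.28 in mTEC. Its share of the Cox6b1 and Cox6b2 RPKM was 2.42% to 5.68% in cTEC and 0.485% to 2.21% in mTEC. The ratio of TEC to VEC was 5.96 (4.60 to 7.84, 468 against 66 counts). The edgeR contrast instead averages the log2 levels of the groups, with tomato+ VEC at 0 counts. Its log2 difference was -5.27 for VEC minus TEC (edgeR adjusted p = 0.00300), and that call held under all 21 alternatives. Without tomato- VEC replicate 3, left out after its value was seen, the ratio was 20.5 (12.5 to 36.2).

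Cox8b, the heart and skeletal muscle form of Cox8a, had 1 count over the 6 VEC libraries and 150 over the 6 TEC libraries. Its level was 0.915, 4.40 and 1.47 CPM in cTEC and 6.45, 0.348 and 0.640 in mTEC, so 1 library of each group held most of it. The ratio of TEC to VEC was 126 (22.3 to 5016), and edgeR's log2 difference for VEC minus TEC was -6.58 (edgeR adjusted p = 0.00393). Without mTEC replicate 1 the ratio was 83.3 (14.5 to 3329). Without tomato- VEC replicate 2, which held the 1 VEC count, VEC had 0 counts. With a floor of 3 counts in place of 0, the ratio was then 34.7. The exact lower limit of the interval was smaller, at 27.9. Cox7a1, the muscle form of Cox7a2, stood at 1.06, 1.16 and 2.72 CPM in mTEC. It had 2 counts in VEC and 69 in TEC, a ratio of 29.0 (7.73 to 244). The edgeR log2 difference for VEC minus TEC was -4.72 (edgeR adjusted p = 0.0212). That call was lost in 5 of 20 alternatives, among them those without cTEC replicate 2, tomato- VEC replicate 2 or tomato- VEC replicate 3. The Cox7a1 ratio was 18.3 (4.70 to 157) without mTEC replicate 3. Without tomato- VEC replicate 1, which held both VEC counts, the same floor gave a Cox7a1 ratio of 16.1. The exact lower limit there was 12.8.

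Cox6a2, the heart and skeletal muscle form of Cox6a1, was seen only in mTEC. It stood at 0.962, 2.67 and 2.56 CPM there, 65 counts in all, and had 0 counts in the 9 other libraries. With a floor of 3 counts in place of 0, the ratio was 22.5 against cTEC and 37.2 against VEC. The exact 95% lower limits of these ratios were smaller, at 17.8 and 29.4. The edgeR adjusted p against cTEC was 0.0585, while limma voom gave 0.000493. For VEC against TEC the edgeR fit was not usable (log2 -3.68, SE 5314.44). There limma voom called the gene lower in VEC (adjusted p = 0.00363), though cTEC was at 0 counts as well. The gene passed the low-count filter only through mTEC, the group where it is high. Its p-values therefore add no support beyond the counts.

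Cox4i2, the lung and smooth muscle form of Cox4i1, was at 0, 4.18 and 1.07 CPM in tomato+ VEC, at 0.111, 0 and 0 in tomato- VEC, 0, 7.73 and 0.950 in cTEC and 0, 0 and 3.92 in mTEC. Each of the 3 higher groups owed most of its level to 1 library, and the gene was not called (edgeR adjusted p = 0.248 for VEC against TEC). Ndufa4l2, a hypoxia-induced relative of Ndufa4, had 4 counts in VEC and 70 in TEC, of which 45 were from cTEC, all in replicate 2 (4.40 CPM). Cox7b2, a testis-type form of Cox7b, had 12 counts, all in mTEC replicate 3, and Cox8c, a testis-type form of Cox8a, had 7 counts in all.

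Beside these values, 12 striated muscle markers summed to 3.92 to 11.7 CPM in tomato+ VEC, 5.30 to 28.9 in tomato- VEC, 13.5 to 15.6 in cTEC and 22.6 to 44.0 in mTEC. Of the 12, 5 were at 0 in each VEC group, among them Ckm in both, 4 in cTEC and 0 in mTEC. Their part in the isoform values was not tested.

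**Figure D4:**
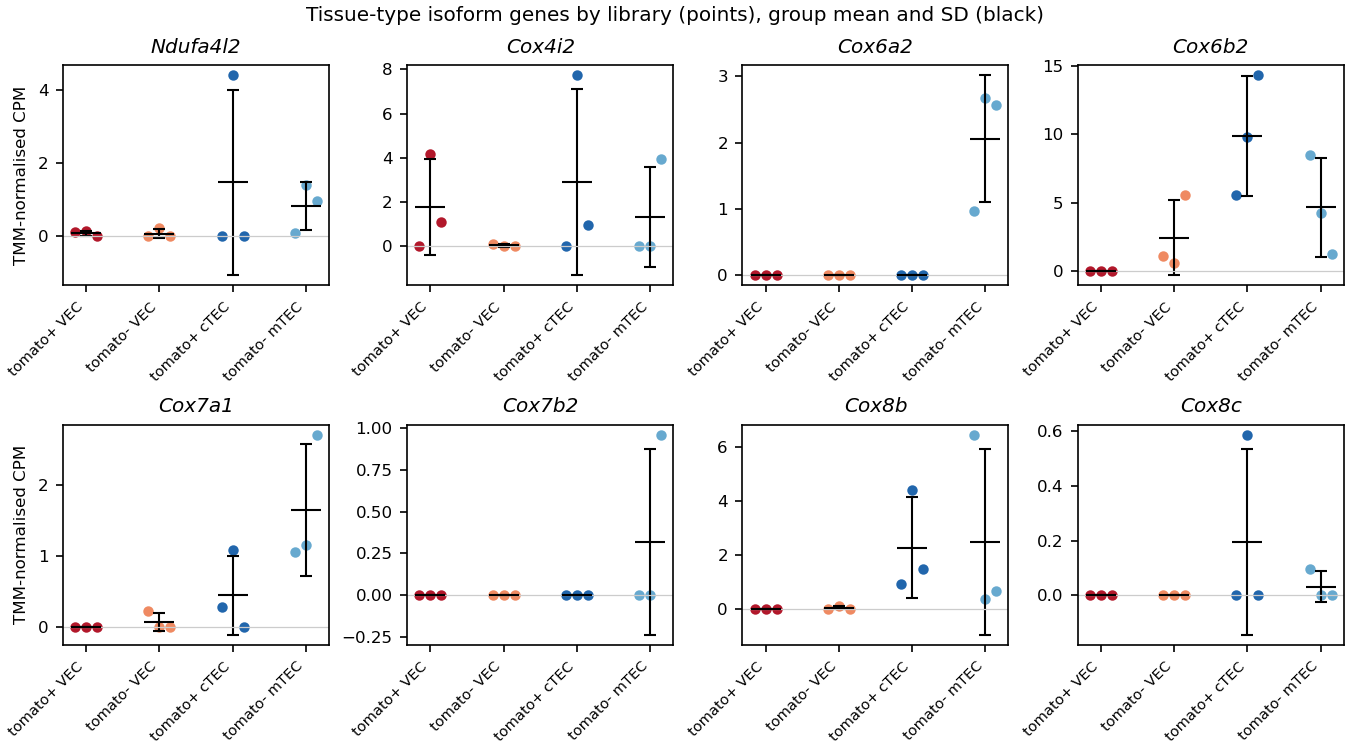
TMM-normalised CPM of the 8 tissue-type isoforms in each of the 12 libraries (points), with group mean and SD in black (n = 3); each panel has its own axis, which begins below 0 where the SD does. Cox6b2 reaches 14.3 in cTEC, Cox6a2 appears only in mTEC, and single libraries carry most of Cox4i2, Ndufa4l2, Cox7b2 and Cox8c.

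The second comparison set tomato+ VEC against tomato- VEC, within the endothelial gate. It called 0 of 81 members by edgeR, against 1.65% of all genes tested (0.568% higher and 1.08% lower), and the median log2 difference was 0.04 over the members and 0.00 over all genes. At an unadjusted p under 0.05, 6 of 81 passed, against 16.2% of all genes. DESeq2 called 3 (Cox6b2, Ndufv2 and Uqcr10) and limma voom 1 (Cox6b2). The groups did not overlap for 14 members, 17.3% of those tested, against 15.8% of all genes.

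The members with an unadjusted p under 0.05 went both ways. Ndufv2, a core subunit of the NADH-oxidising module, was at 344, 362 and 344 CPM in the tomato+ libraries and 254, 240 and 232 in the tomato- libraries (log2 0.53, SE 0.18, edgeR adjusted p = 0.167). Uqcr10, a small complex III subunit, was at 156, 139 and 134 CPM against 100, 111 and 103 (log2 0.45, SE 0.19, edgeR adjusted p = 0.278). The tomato+ libraries lay above the tomato- libraries for both genes.

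Sdha was lower in tomato+ VEC without passing the test and with overlap, at 186, 60.3 and 145 CPM against 353, 167 and 270 (log2 -1.01, SE 0.39, edgeR adjusted p = 0.226). Cox6b2 had 66 counts in tomato- VEC and 0 in the other VEC group, most of the 66 in replicate 3 (edgeR adjusted p = 0.0597). Ndufb8 and Ndufs4 also passed the unadjusted threshold, at 0.39 and 0.54 on the log2 scale, higher in tomato+ VEC.

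The third comparison set cTEC against mTEC. It called 2 of 81 members, 2.47% against 7.83% of all genes tested. Of these 1 was higher in cTEC, against 2.73% of all genes, and 1 lower, against 5.1%. At an unadjusted p under 0.05, 6 members passed, against 20.4% of all genes. The groups did not overlap for 31 members, 38.3% of those tested, against 39.0% of all genes. The myeloid, erythroid, fibroblast and thymocyte sums given above also differed between these groups without overlap, and their part was not tested.

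Both called genes encode accessory subunits of complex I, and they moved in opposite directions. Ndufa11, with the values given above, was 2.18-fold higher in cTEC (log2 1.13, SE 0.18, edgeR adjusted p = 0.00329). Ndufc2, a subunit of the membrane arm, was at 133, 168 and 149 CPM in cTEC and 398, 342 and 278 in mTEC. It was 2.26-fold lower in cTEC (log2 -1.18, SE 0.21, edgeR adjusted p = 0.00592). In VEC it stood at 165 to 194 CPM, so mTEC stood above the other 3 groups in every library. Both calls held under all 22 alternatives.

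The 4 members that passed only the unadjusted threshold were all lower in cTEC. Atp5f1, a peripheral stalk subunit of ATP synthase, was at 265, 353 and 376 CPM in cTEC and 566, 530 and 498 in mTEC (log2 -0.68, SE 0.20, edgeR adjusted p = 0.0575). Its groups did not overlap, and DESeq2 (adjusted p = 0.00792) and limma voom (0.00912) called it. So did edgeR with relative log expression scaling (edgeR adjusted p = 0.0408). Atp5e (log2 -0.70, edgeR adjusted p = 0.111) and Cox4i1 (-0.41, 0.174) had lower values as well, and DESeq2 (0.0323 and 0.0255) and limma voom (0.0263 and 0.0315) called both. Cox6a2 is given above.

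**Figure D5:**
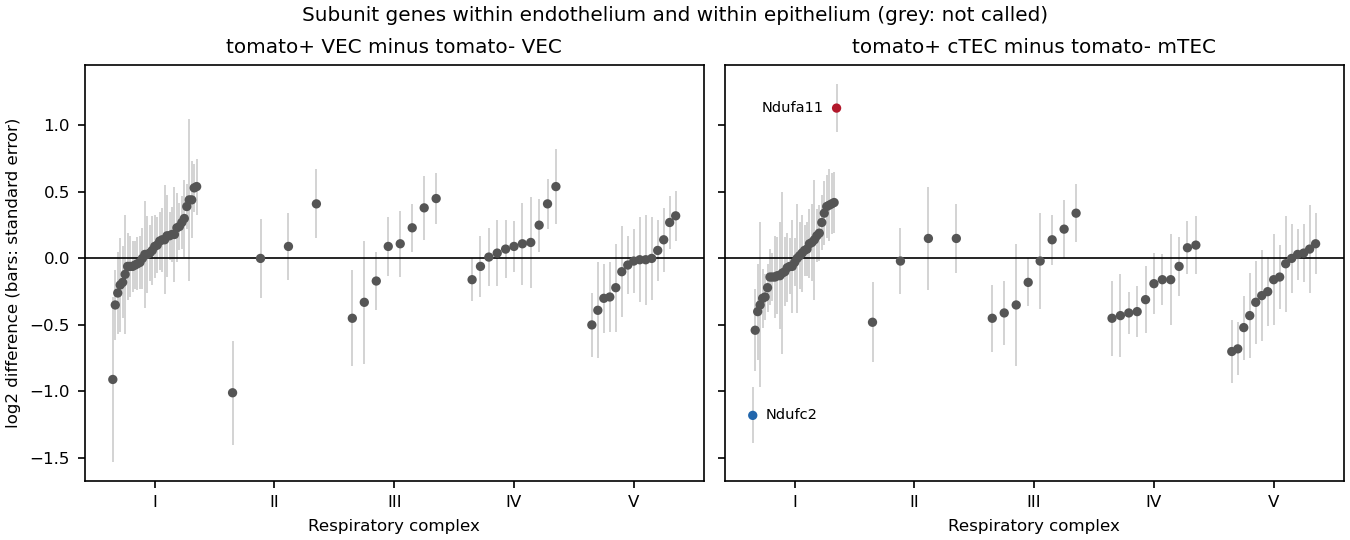
Log2 difference with its standard error for each subunit gene that is no tissue-type isoform, by complex, for tomato+ against tomato- VEC (left) and cTEC against mTEC (right), 3 libraries per group. On the left all points are grey, on the right Ndufa11 (1.13) and Ndufc2 (-1.18) are called.

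The reporter difference in VEC was also tested against the difference between cTEC and mTEC. It called 0 of 81 members by edgeR, against 3.08% of all genes tested. The members nearest the threshold were Cox6b2 (adjusted p = 0.0514), Ndufc2 (0.0552), Ndufa11 (0.0771) and Atp5f1 (0.0892).

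Other genes of the pathway are read from lists in the same fit. Of 10 carriers and subunits, of which Ndufa4 is also a member, 0 were higher and 2 lower in VEC, 20.0% against 36.3% of all genes tested. Etfa, which passes electrons from fatty acid oxidation to the chain, was at 69.0 to 157 CPM in VEC and 232 to 394 in TEC (log2 -1.35, edgeR adjusted p = 0.000163). Atpif1, the inhibitor that keeps ATP synthase from running backwards, was at 62.1 to 142 CPM in VEC and 285 to 405 in TEC (log2 -1.72, edgeR adjusted p = 3.42e-05). For both genes every VEC library lay below every TEC library.

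Cytochrome c and a copper chaperone were lower in cTEC than in mTEC. Cycs, somatic cytochrome c, was at 65.2, 68.9 and 68.9 CPM in cTEC and 154, 130 and 130 in mTEC (log2 -1.03, SE 0.21, edgeR adjusted p = 0.0152), the 1 call of that list. Cox17, which carries copper for complex IV assembly, was at 72.9, 67.7 and 67.9 CPM against 194, 154 and 121 (log2 -1.17, SE 0.27, edgeR adjusted p = 0.0217), the 1 call among 37 assembly factors. These calls make 10.0% of the 10 carriers and subunits and 2.7% of the 37 assembly factors, against 7.83% of all genes tested (5.1% lower). For both genes the groups did not overlap, as for 39.0% of all genes tested.

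Among the 37 assembly factors tested, 5 were lower in VEC than in TEC and 0 higher: Atpaf2, Cox14, Acad9, Cox11 and Tmem70. This is 13.5%, against 21.8% of all genes that were lower. Of 16 tricarboxylic acid cycle genes, which supply NADH and succinate, 2 (12.5%) were lower in VEC and 0 higher: Suclg1 (log2 -1.09) and Mdh2 (-0.65). Of 12 regulators of mitochondrial biogenesis, the coactivators Ppargc1a and Ppargc1b (16.7%) were lower in VEC, at no more than 0.962 CPM in any VEC library, and were at most 16.1 and 9.79 CPM in TEC. Gabpb1, a subunit of the ETS factor GABP, was lower in cTEC than in mTEC (log2 -2.22, edgeR adjusted p = 0.0217). No other regulator was called in that comparison, so 8.33% were called, against 7.83% of all genes tested.

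Of 13 genes of the hypoxia response, 5 were higher in VEC and 3 lower, 61.5% called against 36.3% of all genes tested (14.4% higher and 21.8% lower). Ndrg1 (log2 5.06), Ldha (0.77), which makes lactate, P4ha1 (1.23) and Pfkfb3 (2.46) were higher, as was the glucose transporter gene Slc2a1 (1.21). Hk2 (-6.56), a hexokinase, Adm (-3.56) and Egln3 (-4.33) were lower. Egln3, an oxygen sensor, was the 1 call of this list between the VEC groups (7.69%, against 1.65% of all genes tested). It was listed at 0 in every tomato+ VEC library and at 3.00, 4.35 and 1.45 CPM in the tomato- ones (edgeR adjusted p = 0.0357).

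Of 9 uncoupling and antioxidant genes tested, 2 were higher in VEC and 3 lower, 55.6% called against 36.3% of all genes. Gpx1, a glutathione peroxidase, was at 780 to 1409 CPM in VEC and 209 to 470 in TEC (log2 1.55, edgeR adjusted p = 5.07e-06), and Cat, catalase, was higher as well (0.81). Ucp2 (-2.65), Prdx5 (-0.66) and Gpx4 (-0.56) were lower. Between cTEC and mTEC, 33.3% of the 9 were called, against 7.83% of all genes tested. Prdx5, a peroxiredoxin, was higher in cTEC (log2 1.33, edgeR adjusted p = 0.0179), and Prdx3, the mitochondrial peroxiredoxin (-1.56), and Gpx1 (-0.82) were lower.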

How the data were processed

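Poly(A) RNA of 4 sorted populations, 3 libraries each, was amplified with a SMARTer Ultra Low kit, per the labels' protocols. Per the submitters' processing notes, TopHat2 2.0.10 and mm9 were used. How reads were assigned to genes, and with which annotation, is not given in the sources used here. Deposited were raw counts and RPKM values for each gene and library, per the file headers. The authors' RPKM divides by total counts, not by TMM-scaled ones. Total counts were 8388869 to 11807130 per library.

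Counts were tested in R 4.3.3 with edgeR 4.0.16 (filterByExpr, minimum count 10, 14792 genes kept; TMM; quasi-likelihood fit of all 12 libraries with a term per group, 8 residual degrees of freedom, biological coefficient of variation 0.79). A call is a Benjamini-Hochberg adjusted p under 0.05 over all genes tested. Per-library levels are TMM-normalised CPM. Exact 95% intervals for ratios of counts, and a floor of 3 counts over a group, cover counting error only, and amplified reads without molecular identifiers are not independent molecules. The tests were checked on simulated data.

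Alternatives were other scalings and filters, DESeq2 1.42.0, limma 3.58.1 (voom, and trend on log2(RPKM + 1) or + 0.1), a replicate block, single pairs of groups and leaving out each library. Members were the symbols matching the pattern. Named were all called members (at most 10 per direction), all tissue-type isoforms and their counterparts, the highest and lowest gene by RPKM of each complex, members that are no subunit or fell under the filter, and at most 4 called genes by smallest p of each other list; further names, such as those with unadjusted p only, were chosen after their values were seen. One member is not reported here by itself. Members and lists were chosen with earlier results of these data known. Gene overlaps and copies (at least 95% identity over at least 50% of a transcript) came from GENCODE vM21, and promoters from RefSeq GRCm38.p6.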

Additional observations from a re-analysis of the deposited data

Results flagged for a closer look

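The difference between the VEC reporter contrast and the cTEC against mTEC contrast was itself tested by edgeR's quasi-likelihood test (3 libraries per group). It was past the threshold for 4 genes of the lists read beside the subunits, and for 3.08% of all genes tested. The share of the list genes that these 4 make was not worked out, so they are no result about the lists. Cycs differed by 1.31 on the log2 scale (adjusted p = 0.0399): it was at 135 and 111 CPM in tomato+ and tomato- VEC and at 67.7 and 138 in cTEC and mTEC. Prdx5 differed by -1.85 (adjusted p = 0.0310), with 78.9 and 113 CPM in VEC and 237 and 94.2 in cTEC and mTEC. Among the markers of other cell types, the fibroblast gene Dcn differed by -4.4 (adjusted p = 0.0277) and the mural cell gene Rgs5 by 6.31 (adjusted p = 0.0480).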

How the results depend on the processing

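Against 20, 0 and 2 called members (VEC against TEC, VEC reporter, cTEC against mTEC), relative log expression scaling gave 28, 0 and 3, and DESeq2 gave 32, 3 and 5. Scaling by total counts, chosen after seeing the data, gave 32, 0 and 2. limma voom gave 25, 1 and 6, and limma-trend gave 50, 0 and 4 on log2(RPKM + 1) and 51, 1 and 4 on log2(RPKM + 0.1). With no low-count filter the counts were 14, 0 and 2, and with at least 5 CPM in 3 libraries 19, 0 and 3. Fitting only the 6 libraries compared gave 0 and 6 for the last 2 comparisons. Leaving out each library gave 12 to 20, 0 and 2. The cause of these shifts was not tested. No named call reversed its direction under these settings. The median of all members tested, tissue-type isoforms included, minus that of all genes (VEC minus TEC) was compared across settings. It was -0.05 with TMM, relative log expression and total-count scaling alike, and -0.14 to 0.15 over the settings named here. With the replicate block the counts were 19, 0 and 2. Deviations from the group means correlated at -0.013 to 0.064 over 18 pairs of libraries with the same number. Pairs with different numbers gave -0.046 to 0.024. Correlations this weak cannot decide whether the numbers pair the libraries. Low counts limit the tissue-type isoforms, whose fitted differences depend on the prior count.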
